A study of Mus musculus with 8 samples.

Results

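The genes described here make, take up and export cholesterol. A list of 29 mouse genes was set by their known roles, and 28 of the 29 are found under those symbols among the 31252 genes measured. They comprise 7 enzymes from acetyl-CoA to farnesyl diphosphate, 10 enzymes from squalene to cholesterol, 4 genes that control the sterol-regulated transcription factor SREBP-2, 4 genes of uptake and transport inside the cell, and 3 genes of export. The remaining enzyme, Msmo1, carries its older symbol Sc4mol in the tables and was matched by its RefSeq transcript. Its values are given, but it enters none of the counts of 28.

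Messenger RNA was sequenced from 3T3-L1 preadipocytes, mouse fibroblasts in long-term culture that become fat cells under hormones. The control cells carried an empty shRNA vector, shMaf1 cells an shRNA against Maf1, a repressor of RNA polymerase III, and shBrf1 cells an shRNA against Brf1, a subunit of the TFIIIB factor which that polymerase needs. ML-60218 cells received a small-molecule inhibitor of RNA polymerase III; its dose, its vehicle, the time of exposure and whether these cells also carried the vector are not given in the sources used here. Day 0 cells were harvested 2 days after reaching confluence, without the cocktail, and day 2 cells after 2 days with insulin (10 µg/mL), dexamethasone (2 µM), IBMX (0.5 mM) and ascorbic acid (25 µg/mL). Each of the 8 groups was 1 library, so no difference below has a replicate check and none was tested. All comparisons with control on a day share the same control library.

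Cholesterol is built from acetyl-CoA through mevalonate, isoprenoids, squalene and lanosterol. When sterols in the endoplasmic reticulum run low, SCAP escorts SREBP-2 to the Golgi, where it is cut and freed to enter the nucleus and switch on most genes of this chain; INSIG proteins hold SCAP back when sterols are plentiful. When sterols are in excess, oxysterols activate the LXR receptors, which raise the exporters ABCA1 and ABCG1 and MYLIP (also called IDOL), a ubiquitin ligase that sends lipoprotein receptors for breakdown. Cholesterol taken up with lipoproteins leaves lysosomes through NPC2 and NPC1, and STARD4 carries sterol through the cytosol.

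Levels are given as CPM, counts brought to one common library total, with TMM scaling, which sets the typical gene as equal between libraries; they are not corrected for gene length, so levels of different genes are not compared. Library totals were 29035505 to 31759559 read pairs on genes. Values in parentheses after a fold are 95% exact conditional binomial (Clopper-Pearson) intervals, which cover counting error only. To count as higher or lower, a gene had to differ at least 2-fold (a log2 ratio of 1 after adding 0.5 CPM) and reach 1 CPM in the library where it was higher; a 1.5-fold rule is given beside it. Maf1 was 4.26-fold (3.83 to 4.75) and 5-fold (4.45 to 5.62) lower than control in shMaf1 at day 0 and day 2, and Brf1 was 1.73-fold (1.57 to 1.91) and 2.06-fold (1.82 to 2.35) lower in shBrf1. All 6 fibroblast and preadipocyte markers were present, with a summed level of 16631 to 20765 CPM at day 0 and 4625 to 13165 CPM at day 2. Adipocyte markers summed to 181 to 612 CPM at day 0 and 333 to 1781 CPM at day 2. Nearly all of the sum at day 0 was Lpl, at 181 to 606 CPM. Endothelial and epithelial markers stayed below 1 CPM in sum, with Epcam at 0 in every library, and the muscle markers stayed at or below 8.24 CPM, with Myod1 at 0 in every library.

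One library stands apart in quality. The shBrf1 library of day 2 had 7.8% of reads on ribosomal RNA against 0.46% to 0.93% in the others, and the highest 3′ bias score, 0.36, followed by 0.22 in ML-60218 at day 2 and 0.06 to 0.15 elsewhere. Spike-in (ERCC) reads per 1000 aligned reads were 3.83 to 4.26 at day 0, and at day 2 they were 5.46 in control, 4.98 in shMaf1, 8.14 in shBrf1 and 7.76 in ML-60218. Scaling by the spike-ins instead of TMM moved the median gene of day 2 against day 0 by a log2 value of -0.65 in control, -0.33 in shMaf1, -1.17 in shBrf1 and by the most, -1.25, in ML-60218. For the comparisons with control at day 2 the shifts were 0.15 in shMaf1, -0.64 in shBrf1 and -0.58 in ML-60218. The directions below are therefore relative to the typical gene of each pair of libraries. Within bulk RNA, fewer cells with a transcript and less of it per cell cannot be told apart.

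Promoters are shown first because, under TMM scaling, all 17 counted enzymes lay above control in ML-60218 at day 0, and at least 16 of the 17 lay above day 0 at day 2 in each condition. Under spike-in scaling no sign turned in the first of these comparisons. For day 2 against day 0, however, 16 of the 29 listed genes changed side in shBrf1, 19 in ML-60218, 9 in control and 5 in shMaf1. RefSeq promoters (build GRCm38.p6, 250 bases before to 50 after the start) were given for 23 of the 29 listed genes. On either strand, CCAAT, the box bound by NF-Y, occurred in 93.3% of the 15 enzymes, in 62.5% of the 8 others and in 41.1% of all 27025 genes with a promoter given. A gene counted when any of its promoters held the letters. The 27025 genes were taken whatever their level in these cells, whereas the listed genes all reached a mean of 1 CPM, so the shares are not like for like. GGGCGG, the GC box bound by Sp1 factors, occurred in 93.3%, 87.5% and 38.2%. The core of the sterol regulatory element, searched as TCACNCCAC, occurred in 1 of the 23, that of Hmgcs1, and in 1.44% of all. A direct repeat of the kind LXR binds, searched only as an exact copy of the consensus letters, occurred in 0 of the 23 and in 0.0148% of all. Repeats that depart from those letters were not searched. The search therefore cannot tell whether Abca1 or another listed promoter holds such a repeat. Below are 3 enzyme promoters and that of the exporter Abca1, 5′ to 3′ on the strand of the gene. Capitals mark CCAAT on either strand (ATTGG where it is read on the opposite strand) and the sterol regulatory element core. Their places are chr13:119690101-119690400 on the plus strand for Hmgcs1, chr13:8885356-8885655 on the plus strand for Idi1, chr1:169969156-169969455 on the minus strand for Hsd17b7 and chr4:53159846-53160145 on the minus strand for Abca1.
Hmgcs1: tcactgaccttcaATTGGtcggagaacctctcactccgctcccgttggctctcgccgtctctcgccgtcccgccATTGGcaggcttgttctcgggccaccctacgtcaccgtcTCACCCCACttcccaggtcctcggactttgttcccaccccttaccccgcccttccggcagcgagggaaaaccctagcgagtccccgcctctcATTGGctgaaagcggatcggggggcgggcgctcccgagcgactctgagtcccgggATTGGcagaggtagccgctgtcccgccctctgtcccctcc
Idi1: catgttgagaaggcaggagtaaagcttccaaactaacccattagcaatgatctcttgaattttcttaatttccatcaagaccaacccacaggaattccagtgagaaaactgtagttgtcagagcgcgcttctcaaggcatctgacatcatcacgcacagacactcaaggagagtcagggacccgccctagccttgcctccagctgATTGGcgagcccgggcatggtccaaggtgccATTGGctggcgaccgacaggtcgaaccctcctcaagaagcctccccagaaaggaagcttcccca
Hsd17b7: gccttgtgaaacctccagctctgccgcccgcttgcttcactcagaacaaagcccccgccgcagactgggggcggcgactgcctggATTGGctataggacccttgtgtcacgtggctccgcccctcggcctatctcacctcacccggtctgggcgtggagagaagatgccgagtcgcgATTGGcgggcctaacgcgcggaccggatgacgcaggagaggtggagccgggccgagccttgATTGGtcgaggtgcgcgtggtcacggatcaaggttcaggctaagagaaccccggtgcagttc
Abca1: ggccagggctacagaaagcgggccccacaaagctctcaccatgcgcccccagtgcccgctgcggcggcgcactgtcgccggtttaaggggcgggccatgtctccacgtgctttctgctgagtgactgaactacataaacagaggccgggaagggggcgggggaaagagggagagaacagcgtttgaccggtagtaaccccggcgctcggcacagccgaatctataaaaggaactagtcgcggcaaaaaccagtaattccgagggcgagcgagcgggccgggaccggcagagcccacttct
The Hmgcs1 window held 4 CCAAT matches and the element core TCACCCCAC, the Idi1 window 2 CCAAT matches and the Hsd17b7 window 3. The Abca1 window held neither CCAAT nor the sterol regulatory element core as searched. The printed windows do not stand for their groups. At least 2 CCAAT matches occurred in 60% of the 15 enzymes and in 37.5% of the 8 others. The enzyme Acat2 held 0, and Mylip, not an enzyme of the chain, held 3. A match is a description of letters, not of a bound site.

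At day 0, before the cocktail, the enzymes of cholesterol synthesis were higher in ML-60218 than in control. All 17 counted enzymes stood above control, from 1.1-fold (1.02 to 1.2) for Ebp, the sterol isomerase, to 1.61-fold (1.49 to 1.75) for Lss, which closes squalene epoxide into lanosterol. Msmo1, the sterol methyl oxidase, was 1.49-fold (1.43 to 1.56) higher. None of the 28 genes passed the 2-fold rule, nor did more than 0.115% of the 12199 genes tested in this comparison. Under the 1.5-fold rule 6 of the 28 were higher, beside 0.484% of all genes, and those 6 made up 10.2% of the 59 genes that were higher. One of the 28 was lower, beside 0.885% of all genes. A log2 ratio above 0 was seen in 25 of the 28, beside 54.1% of all genes, with a median of 0.42 against 0.01 for all genes. None of the 29 signs turned under the other scalings.

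**Figure D1:**
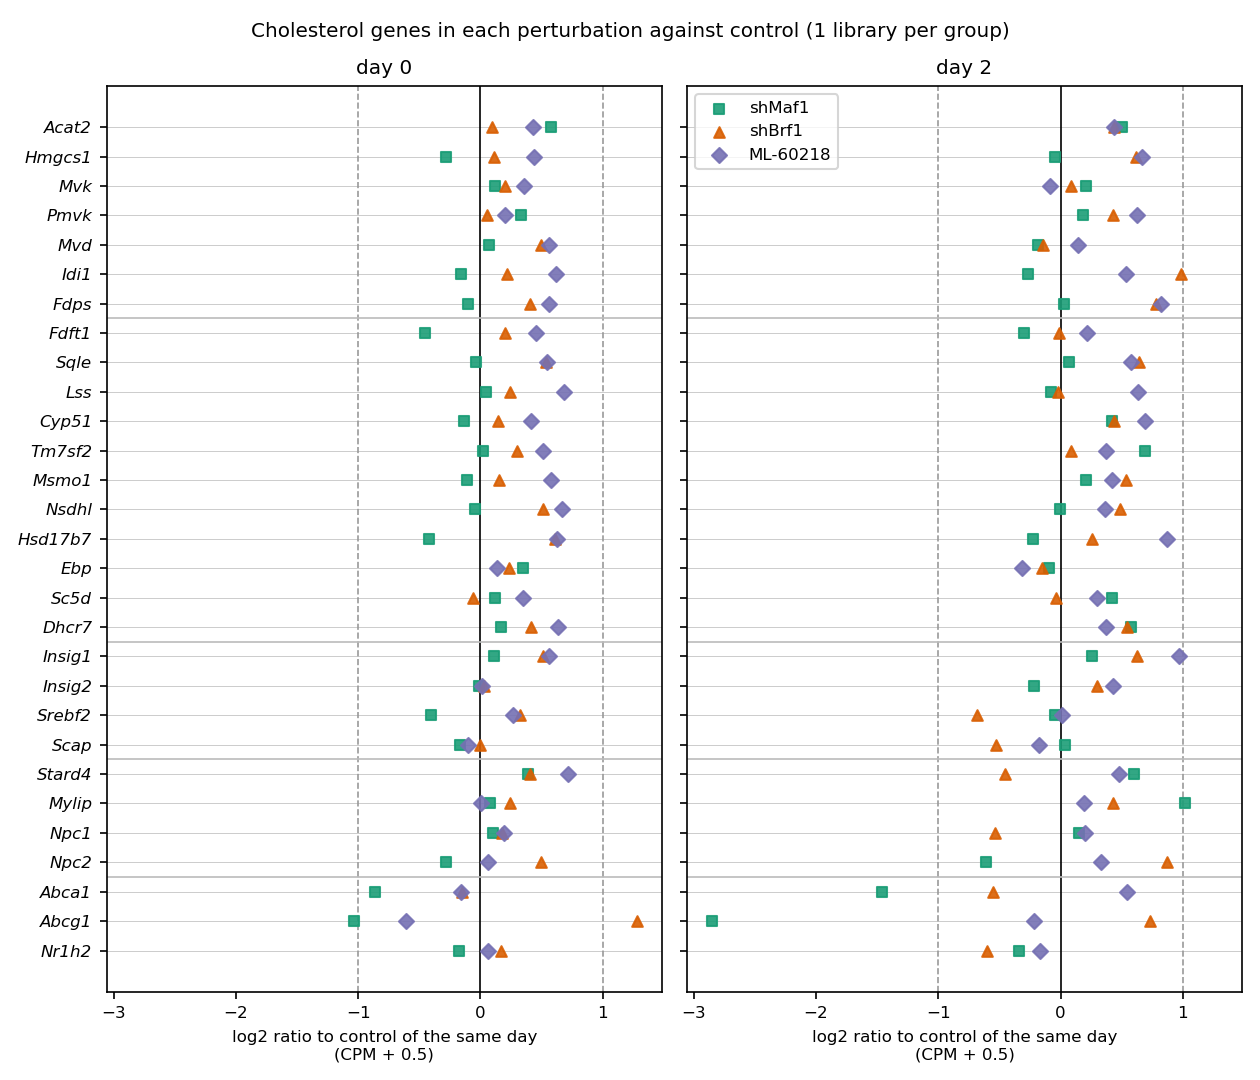
Log2 ratio of each cholesterol gene to control of the same day, at day 0 (left) and day 2 (right), with 1 library per group; squares are shMaf1, triangles shBrf1 and diamonds ML-60218, dashed lines mark 2-fold, and grey lines separate mevalonate enzymes, squalene and sterol enzymes, SREBP control, uptake and transport, and export. At day 0 the ML-60218 diamonds of all enzymes lie to the right of 0 under each scaling, while Abca1 and Abcg1 in shMaf1 lie farthest left on both days; under spike-in scaling 17 of 29 diamonds, 14 of 29 triangles and 4 of 29 squares at day 2 change side.

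The levels at day 0 show the pattern gene by gene. Idi1, which isomerises isopentenyl diphosphate, stood at 50.9 CPM in control, 45.7 in shMaf1, 59.3 in shBrf1 and 78.3 in ML-60218. Hmgcs1, which makes HMG-CoA, stood at 156, 128, 168 and 211 CPM in the same order, and Fdps, which makes farnesyl diphosphate, at 60.4, 56.2, 80 and 89.6 CPM. In each of the 3 the order was shMaf1 lowest and ML-60218 highest. Sqle, the squalene epoxidase, stood at 99.5 CPM in control, 97.3 in shMaf1, 145 in shBrf1 and 146 in ML-60218. Hsd17b7, the sterol ketoreductase, stood at 20.5, 15.2, 31.6 and 32.1 CPM, and Nsdhl, which removes the sterol methyl carbon, at 34.3, 33.2, 49.1 and 54.6 CPM. Here shBrf1 lay close to ML-60218, and both lay above control. The genes past the 1.5-fold rule in ML-60218 were Idi1 at 1.54-fold (1.45 to 1.63), Lss, Nsdhl at 1.59-fold (1.48 to 1.72), Hsd17b7 at 1.56-fold (1.42 to 1.72), Dhcr7, the last reductase of the chain, at 1.56-fold (1.44 to 1.71), and Stard4 at 1.66-fold (1.5 to 1.83).

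The genes around the enzymes were less uniform in ML-60218 at day 0. Insig1, the INSIG gene that SREBP itself switches on, stood at 60.6 CPM in control, 65.5 in shMaf1, 86.7 in shBrf1 and 89.7 in ML-60218, a 1.48-fold (1.4 to 1.57) excess in ML-60218. Srebf2, which encodes SREBP-2, stood at 165, 125, 207 and 199 CPM, or 1.21-fold higher. Insig2 stood at 48.9, 48.6, 49.9 and 49.5 CPM, level in all conditions. Scap was 1.07-fold (1.02 to 1.13) lower and Mylip 1-fold (0.954 to 1.05) of control. Stard4 stood at 19.2 CPM in control, 25.3 in shMaf1, 25.6 in shBrf1 and 31.8 in ML-60218, so all 3 perturbed libraries lay above control. The lysosomal genes Npc1 and Npc2 were 1.14-fold (1.08 to 1.21) and 1.04-fold (1.02 to 1.06) higher. The exporters went the other way: Abca1 was 1.12-fold (1.01 to 1.23) lower and Abcg1 1.89-fold (1.13 to 3.23) lower, the latter on 24 counts against 47.

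In shBrf1 at day 0, most of the genes lay slightly above control, and Abcg1 well above it. Of the 28, 1 was higher and 0 lower by the 2-fold rule, beside 0.986% of all genes in either direction. By the 1.5-fold rule 2 were higher, Abcg1 and Hsd17b7, beside 2.45% of all genes, and 0 were lower, beside 2.55%. The log2 ratio was above 0 in 25 of 28 genes, beside 54.8% of all genes, with a median of 0.24 against 0.02, and it was 0.11 against -0.11 under spike-in scaling. Abcg1 was 2.95-fold (2.1 to 4.21) higher, at 4 CPM, under a floor of 5 CPM. Hsd17b7 was 1.54-fold (1.4 to 1.69), Sqle 1.46-fold (1.39 to 1.52), Nsdhl and Mvd, the mevalonate decarboxylase, both 1.43-fold, Insig1 1.43-fold (1.35 to 1.51) and Npc2 1.41-fold (1.39 to 1.44) higher than control. At day 0 adipocyte markers summed to 357 CPM in control, 612 in shBrf1 and 441 in ML-60218, and the macrophage markers to 8.31, 25.2 and 6.43 CPM. Lpl alone stood at 352, 606 and 435 CPM. Of the other adipocyte markers, none above 4.64 CPM, Fabp4 and Plin1 lay above control in both and Cidec and Cfd below it. Adipoq lay above control in shBrf1 and below it in ML-60218. The part of these markers in the day 0 ratios was not tested.

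In shMaf1 at day 0, the enzymes showed no common direction and the exporters were low. Of the 28 genes, 0 were higher and 1, Abcg1, was lower by the 2-fold rule, beside 3.61% of all genes in either direction. By the 1.5-fold rule 0 were higher, beside 6.32% of all genes, and 2 were lower, Abca1 and Abcg1, beside 4.78%. Abcg1 rested on 13 counts against 47 and fell short of the 2-fold rule with 1 CPM added in place of 0.5, with the length trend removed or with a floor of 5 CPM. A log2 ratio above 0 was seen in 13 of 28, beside 52.6% of all genes, with a median of -0.02 against 0.02. Acat2, the cytosolic thiolase of the first step, was 1.5-fold (1.43 to 1.57) higher; it has a near-identical paralog, Acat3, so its value is uncertain. Fdft1, squalene synthase, was 1.37-fold (1.28 to 1.47), Hsd17b7 1.35-fold (1.2 to 1.52) and Srebf2 1.32-fold (1.27 to 1.38) lower. Fdft1 overlaps Ctsb, which stood at a mean of 683 CPM against 69.6 CPM for Fdft1, and whether reads were counted by strand is not given in the sources used here.

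**Figure D2:**
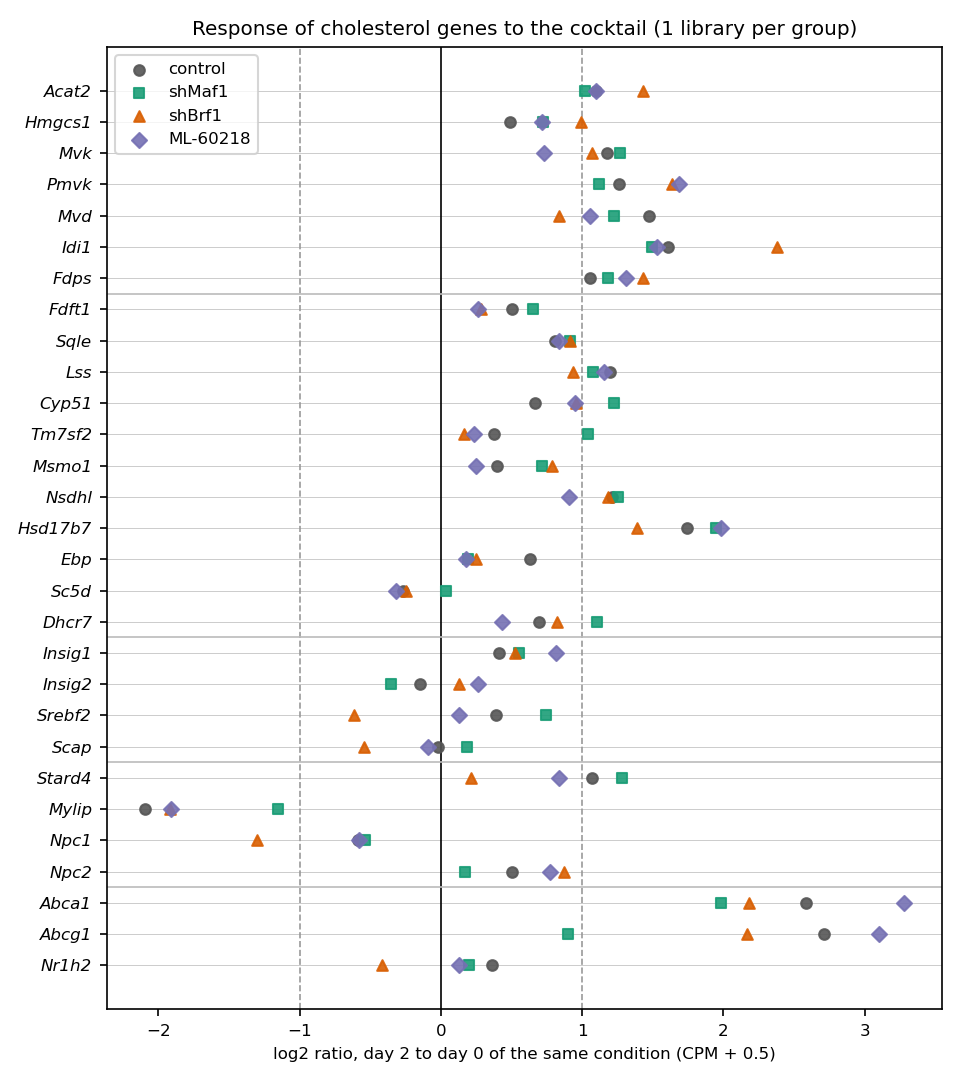
Log2 ratio of day 2 to day 0 within each condition for each cholesterol gene, 1 library per group; circles are control, squares shMaf1, triangles shBrf1 and diamonds ML-60218, and dashed lines mark 2-fold. Abca1 and Abcg1 lie to the right of 0 and Mylip farthest left in each condition, under TMM and under spike-in scaling. The exporters lie far right in control and ML-60218, but Abcg1 in shMaf1 is at 0.90, or 0.74 under spike-in scaling. Abca1 in shBrf1 is at 0.96 under spike-in scaling. There, 9 circles, 5 squares, 16 triangles and 19 diamonds of 29 change side.

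In control cells, 2 days of cocktail were followed by higher levels of most synthesis enzymes, much higher levels of both exporters and a lower level of Mylip. By the 2-fold rule 12 of the 28 genes were higher at day 2, beside 9% of all genes, and 1 was lower, beside 9.75%; under spike-in scaling 3 were higher and 2 lower. The median log2 ratio was 0.68 against 0.05 for all genes, a difference of 0.63 that became 0.62 under spike-in scaling. Under TMM scaling 6 of the 7 mevalonate enzymes passed the rule, with a median log2 ratio of 1.18. Among the 10 squalene and sterol enzymes 3 passed, with a median of 0.68, and Sc5d, the sterol desaturase, was 1.21-fold (1.11 to 1.32) lower. The largest enzyme ratios in control were those of Hsd17b7 at 3.41-fold (3.13 to 3.72), Idi1 at 3.06-fold (2.9 to 3.24) and Mvd at 2.85-fold (2.55 to 3.19). Under spike-in scaling the 3 genes higher by the 2-fold rule were Hsd17b7, Abca1 and Abcg1, with log2 ratios of 1.08, 1.92 and 2.17. The highest mevalonate enzyme there, Idi1, was at 0.94 and fell short of the rule.

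The exporters had the largest ratios of the 28 genes in control. Abca1, which passes cholesterol to lipid-poor apolipoprotein, stood at 26.8 CPM at day 0 and 163 CPM at day 2 in control, a 6.08-fold (5.67 to 6.53) excess. Abcg1, which passes it to formed HDL, stood at 1.36 and 11.7 CPM, 8.6-fold (6.33 to 11.9) higher. Mylip stood at 89.4 and 20.5 CPM, 4.35-fold (3.99 to 4.75) lower. Mylip and the 2 exporters are all known LXR targets, and Mylip lay on the opposite side from the exporters in each of the 4 conditions, under spike-in scaling as well. Nr1h2, which encodes the LXR-beta receptor, stood at 41.6 and 53.5 CPM, 1.29-fold (1.2 to 1.38) higher, with its sign turned under spike-in scaling. Stard4 was 2.13-fold (1.94 to 2.35) higher, Npc2 1.42-fold (1.39 to 1.45) higher, turned under spike-in scaling, and Npc1 1.5-fold (1.4 to 1.62) lower. Npc1 overlaps 3110002H16Rik, which stood at a mean of 27.3 CPM. Macrophages also carry the exporters. The 4 macrophage markers in the tables, of which Lyz2 and Cd68 reached a mean of 1 CPM, summed to 6.43 to 25.2 CPM at day 0 and to 1.39 to 1.97 CPM at day 2. Most of that sum at day 0 was Lyz2, at 7.01 and 0.573 CPM in control on the 2 days. Cd68 stood at 0.866 and 0.91 CPM in control and at 0.808 and 1.53 CPM in ML-60218. Their part in the exporter ratios was not tested.

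The SREBP genes differed little between the days in control. Insig1 was 1.33-fold (1.26 to 1.41) and Srebf2 1.31-fold (1.27 to 1.36) higher at day 2, both turned under spike-in scaling, Insig2 was 1.11-fold (1.03 to 1.19) lower, and the interval of Scap, 1.01-fold (0.964 to 1.06) lower, included 1. Under TMM scaling none of the 4 passed the 2-fold rule between days in any of the 4 conditions. Under spike-in scaling 3 of them were lower at day 2 past that rule, with log2 ratios in shBrf1 of -1.84 for Srebf2, -1.76 for Scap and -1.09 for Insig2. In ML-60218 the same 3 stood at -1.16, -1.38 and -1.02.

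In the other conditions too, more of the 28 genes were higher than lower at day 2 under TMM scaling, but in shBrf1 and ML-60218 this turned under spike-in scaling. In shMaf1, 14 genes were higher by the 2-fold rule, beside 4.95% of all genes, and 1 lower, beside 5.57%, with a median log2 ratio of 0.97; under spike-in scaling 3 were higher and 1 lower, with a median of 0.70. In shBrf1, 9 were higher, beside 14.7%, and 2 lower, beside 17.3%, with a median of 0.85; under spike-in scaling 2 were higher and 7 lower, with a median of -0.36. In ML-60218, 9 were higher, beside 12.3%, and 1 lower, beside 14.5%, with a median of 0.79; under spike-in scaling 2 were higher and 10 lower, with a median of -0.50. Under TMM scaling enzymes made up 12 of the 14 in shMaf1, 7 of the 9 in shBrf1 and 7 of the 9 in ML-60218.

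Under TMM scaling Idi1 had its largest ratio in shBrf1, 5.23-fold (4.97 to 5.49), against 2.84-fold to 3.06-fold in the other conditions. Hsd17b7 ranged from 2.65-fold (2.46 to 2.86) in shBrf1 to 4-fold (3.74 to 4.29) in ML-60218. Both stayed higher at day 2 under spike-in scaling in all 4 conditions, but the order was lost. There the log2 ratio of Idi1 was 0.94 in control, 1.16 in shMaf1, 1.15 in shBrf1 and 0.24 in ML-60218, and that of Hsd17b7 was highest in shMaf1, at 1.62. Abca1 was 4.06-fold (3.66 to 4.5) higher in shMaf1, 4.6-fold (4.26 to 4.99) in shBrf1 and 9.88-fold (9.18 to 10.7) in ML-60218. Abcg1 was 2.94-fold (1.52 to 6.05), 4.93-fold (4.07 to 6.01) and 13.9-fold (9.12 to 22) higher in that order. Under TMM scaling both exporters thus had their smallest ratio in shMaf1 and their largest in ML-60218. Under spike-in scaling the log2 ratio of Abca1 was smallest in shBrf1, at 0.96 against 1.66 in shMaf1, and that of Abcg1 was largest in control, at 2.17 against 2.05 in ML-60218. Mylip was 2.24-fold (2.1 to 2.4) lower in shMaf1 and 3.81-fold to 3.82-fold lower in shBrf1 and ML-60218. The difference of response to that of control had a median log2 value of 0.10 over the 28 genes in shMaf1, -0.07 in shBrf1 and -0.02 in ML-60218, beside -0.04, -0.04 and -0.01 for all genes.

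At day 2, ML-60218 again had higher levels of most enzymes than control, relative to the typical gene. By the 2-fold rule 0 of the 28 genes differed, beside 4.88% of all genes. By the 1.5-fold rule 7 were higher, beside 5.13% of all genes, and 0 lower, beside 8.86%. The log2 ratio was above 0 in 23 of 28, beside 50% of all genes, with a median of 0.37 against 0; under spike-in scaling it was -0.22 against -0.58. Insig1 stood at 80.7 CPM in control, 96.4 in shMaf1, 125 in shBrf1 and 159 in ML-60218, 1.97-fold (1.87 to 2.07) higher in ML-60218. Hsd17b7 stood at 70, 59.9, 83.7 and 128 CPM, 1.83-fold (1.74 to 1.94) higher, and Fdps at 126, 128, 217 and 223 CPM, 1.77-fold (1.7 to 1.84) higher. Those 3 also lay above control in ML-60218 under spike-in scaling, by log2 values of 0.36, 0.26 and 0.21. Cyp51, the lanosterol demethylase, was 1.62-fold (1.56 to 1.69), Hmgcs1 1.59-fold (1.54 to 1.64) and Lss 1.56-fold (1.47 to 1.65) higher. Abca1 stood at 163 CPM in control, 58.9 in shMaf1, 111 in shBrf1 and 237 in ML-60218, 1.46-fold (1.4 to 1.51) higher in ML-60218, whereas Abcg1 was 1.17-fold (0.995 to 1.38) lower. Under spike-in scaling Abca1 was at a log2 ratio of -0.07. Adipocyte markers summed to 527 CPM in control and 1501 CPM in ML-60218 on that day, and their part in these ratios was not tested.

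**Figure D3:**
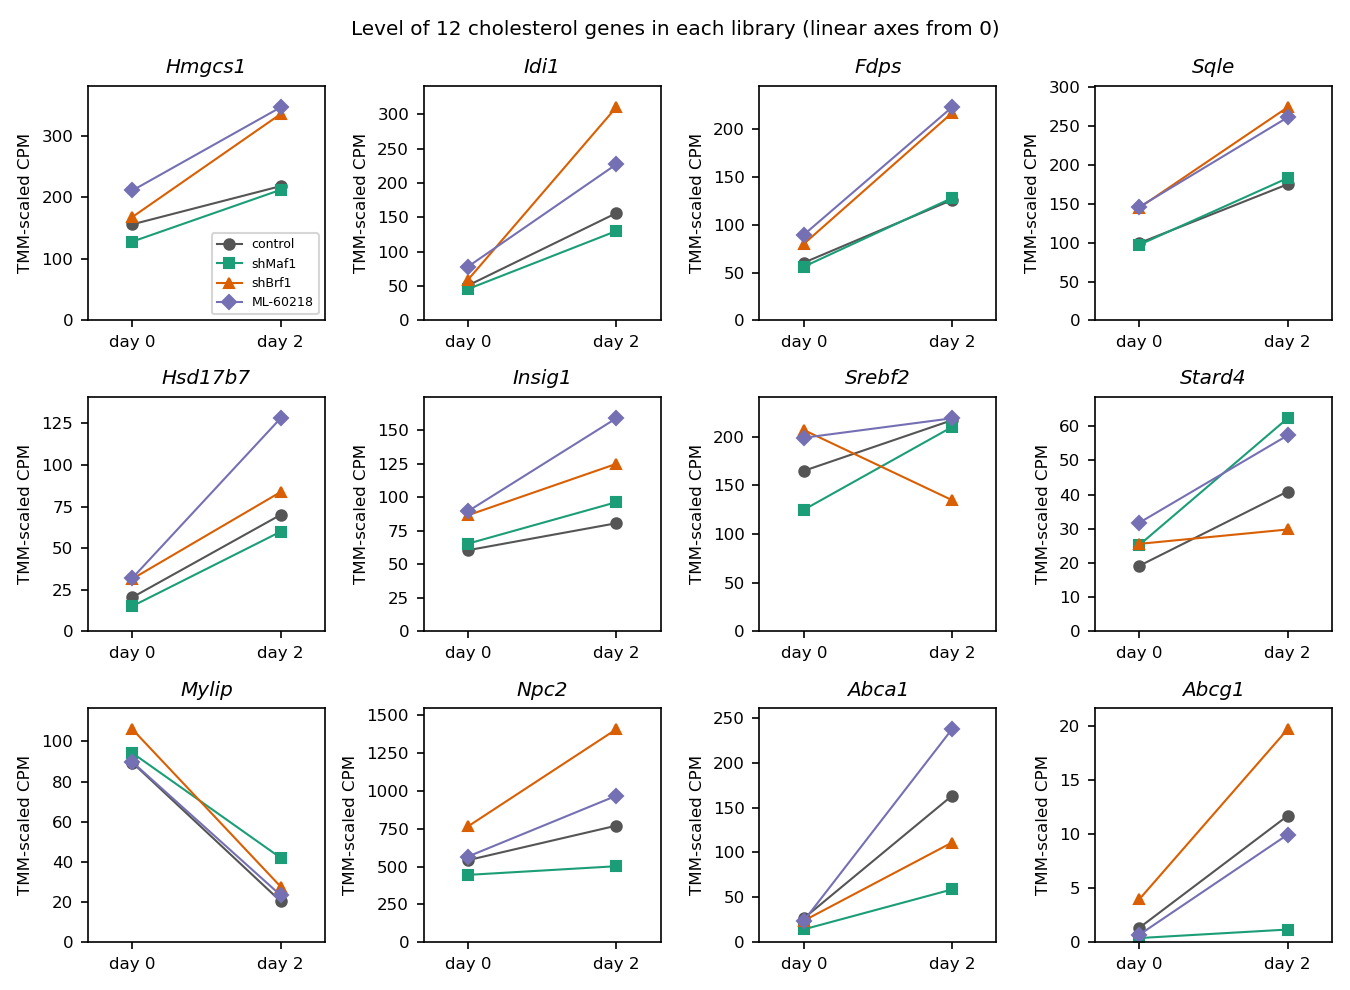
TMM-scaled CPM of 12 cholesterol genes in each of the 8 libraries, day 0 to day 2, on linear axes from 0; lines join the libraries of a condition (circles control, squares shMaf1, triangles shBrf1, diamonds ML-60218). The Srebf2 line goes down in shBrf1, from 207 to 135 CPM, and up in the other conditions, and Abcg1 stays at 1.19 CPM or less in shMaf1.

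In shBrf1 at day 2, Idi1, Fdps, Hmgcs1, Sqle, Insig1, Npc2 and Abcg1 were at least 1.5-fold higher than control under TMM scaling, and Srebf2 and Nr1h2 at least 1.5-fold lower. By the 2-fold rule 0 of the 28 genes differed, beside 8.61% of all genes; under spike-in scaling 6 were lower. By the 1.5-fold rule 7 were higher, beside 11.6%, and 2 lower, beside 15.1%. The log2 ratio was above 0 in 17 of 28, beside 49.5% of all genes, and its median was 0.28 against -0.01 for all genes; under spike-in scaling it was -0.40 against -0.65. Adipocyte markers summed to 527 CPM in control and 1781 CPM in shBrf1 on that day, with Fabp4, a fatty acid carrier, at 81.1 and 769 CPM, and fibroblast markers to 8187 and 4625 CPM; their part in these ratios was not tested. Idi1 stood at 156 CPM in control, 130 in shMaf1, 310 in shBrf1 and 227 in ML-60218, 1.99-fold (1.91 to 2.06) higher in shBrf1. Npc2 stood at 769, 502, 1404 and 966 CPM, 1.83-fold (1.8 to 1.86) higher. These 2 also lay above control under spike-in scaling, by log2 values of 0.30 and 0.18. Fdps was 1.72-fold (1.65 to 1.79), Sqle 1.56-fold (1.51 to 1.62), Insig1 1.55-fold (1.47 to 1.64) and Hmgcs1 1.54-fold (1.49 to 1.59) higher. Of the 7 mevalonate enzymes 3 passed the 1.5-fold rule and 6 lay above control; Mvd lay below it, at 33 against 36.5 CPM. Of the 10 squalene and sterol enzymes 1 passed and 6 lay above control. Dhcr7 was 1.46-fold (1.36 to 1.58), Nsdhl 1.4-fold (1.33 to 1.48) and Cyp51 1.35-fold (1.3 to 1.41) higher, and Msmo1, outside the counts, 1.45-fold (1.39 to 1.51) higher. Ebp was 1.11-fold (1.03 to 1.2) lower, and Fdft1, Lss and Sc5d lay within 1.03-fold of control.

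The largest deficits in shBrf1 at day 2 were at genes outside the enzyme chain. Srebf2 stood at 217 CPM in control, 210 in shMaf1, 135 in shBrf1 and 219 in ML-60218, 1.61-fold (1.55 to 1.68) lower in shBrf1 and level elsewhere. Scap stood at 97.2, 99.8, 67.4 and 86 CPM, 1.44-fold (1.36 to 1.53) lower, and Nr1h2 at 53.5, 42.3, 35 and 47.5 CPM, 1.53-fold (1.41 to 1.66) lower. Each had its lowest level of day 2 in shBrf1. Npc1 stood at 40, 44.3, 27.5 and 45.9 CPM, 1.46-fold (1.32 to 1.6) lower, and Stard4 at 40.9, 62.3, 29.8 and 57.3 CPM, 1.37-fold lower. Abca1 was 1.47-fold (1.4 to 1.54) lower while Abcg1 was 1.69-fold (1.47 to 1.94) higher. This is the library with the highest 3′ bias score and ribosomal share. After the dependence of the log2 ratios on transcript length was smoothed out, the values were -0.47 for Srebf2, -0.39 for Scap, -0.73 for Nr1h2, -0.31 for Npc1, -0.24 for Stard4 and -0.10 for Abca1. With the same correction Idi1 and Abcg1 were each at 1.00, Npc2 at 0.91, Hmgcs1 at 0.67, Sqle at 0.62, Insig1 at 0.60 and Fdps at 0.54. Of these genes only Fdps then fell short of 1.5-fold. Mvd and Ebp, below control before it, were at -0.31 and -0.32. The correction turned 5 of the 29 signs in this comparison. Srebf2 overlaps AK198376, which stood at a mean of 15.3 CPM.

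In shMaf1 at day 2, the exporters and Npc2 were lower than control, Mylip and Stard4 higher, and the enzymes had no common direction. By the 2-fold rule 1 gene was higher and 2 lower, beside 8.05% of all genes in either direction. By the 1.5-fold rule 3 were higher, or 10.7% of the 28 beside 10.8% of all genes. Another 3 were lower, or 10.7% beside 9.36%, so both shares lay close to those of all genes. The log2 ratio was above 0 in 14 of 28 genes, beside 49.8% of all genes, with a median of 0.01. Abca1, at 58.9 CPM against 163, was 2.77-fold (2.62 to 2.93) lower. Abcg1 stood at 11.7 CPM in control, 1.19 in shMaf1, 19.7 in shBrf1 and 9.96 in ML-60218, 9.81-fold (6.92 to 14.3) lower in shMaf1, from 35 counts. Mylip stood at 20.5, 42.1, 27.8 and 23.5 CPM, 2.05-fold (1.86 to 2.26) higher in shMaf1. All 3 stayed past the 2-fold rule on the same side under spike-in scaling, and Mylip fell short of it with 1 CPM added in place of 0.5. Npc2 was 1.53-fold (1.5 to 1.56) lower, and Stard4 was 1.52-fold (1.41 to 1.64), Tm7sf2, a sterol reductase, 1.64-fold (1.41 to 1.92) and Dhcr7 1.5-fold (1.4 to 1.61) higher. Tm7sf2 overlaps Vps51, which stood at a mean of 32.6 CPM against 9.82 CPM for Tm7sf2. Abca1 was already low in shMaf1 at day 0, at 14.5 CPM against 26.8 in control, and Abcg1 at 0.405 CPM against 1.36. Adipocyte markers were also low in shMaf1, at 181 CPM in sum against 357 in control at day 0 and 333 against 527 at day 2. Lpl made up most of these sums, at 181 against 352 CPM and 307 against 390 CPM, and all 6 markers lay below control on both days. The macrophage marker sum was 8.78 against 8.31 CPM and 1.39 against 1.72 CPM. The part of both marker sets in these ratios was not tested.

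The perturbations were also compared with each other, which leaves the control library out. At day 0, shMaf1 lay below shBrf1 and below ML-60218 over the 28 genes, with median log2 ratios of -0.31 and -0.46, and shBrf1 lay at -0.10 to ML-60218. By the 2-fold rule 2 genes were lower in shMaf1 than in shBrf1, beside 5.68% of all genes in either direction, 1 was lower in shMaf1 than in ML-60218, beside 4.2%, and 1, Abcg1, was higher in shBrf1 than in ML-60218, beside 1.05%. At day 2 the medians were -0.05 for shMaf1 to shBrf1, -0.35 for shMaf1 to ML-60218 and -0.21 for shBrf1 to ML-60218; under spike-in scaling they were 0.78, 0.41 and -0.29, so that the first 2 turned. By the 2-fold rule 1 gene was higher and 3 lower in shMaf1 than in shBrf1, beside 21.7% of all genes. In shMaf1 against ML-60218, 3 were lower, beside 15.6%, and in shBrf1 against ML-60218, 1 was lower, beside 4.22%. Under spike-in scaling 8 genes were higher and 1 lower in shMaf1 than in shBrf1 at day 2, and 3 higher and 2 lower than in ML-60218. The gene lower in shBrf1 than in ML-60218 was Abca1, at 111 against 237 CPM.

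**Figure D4:**
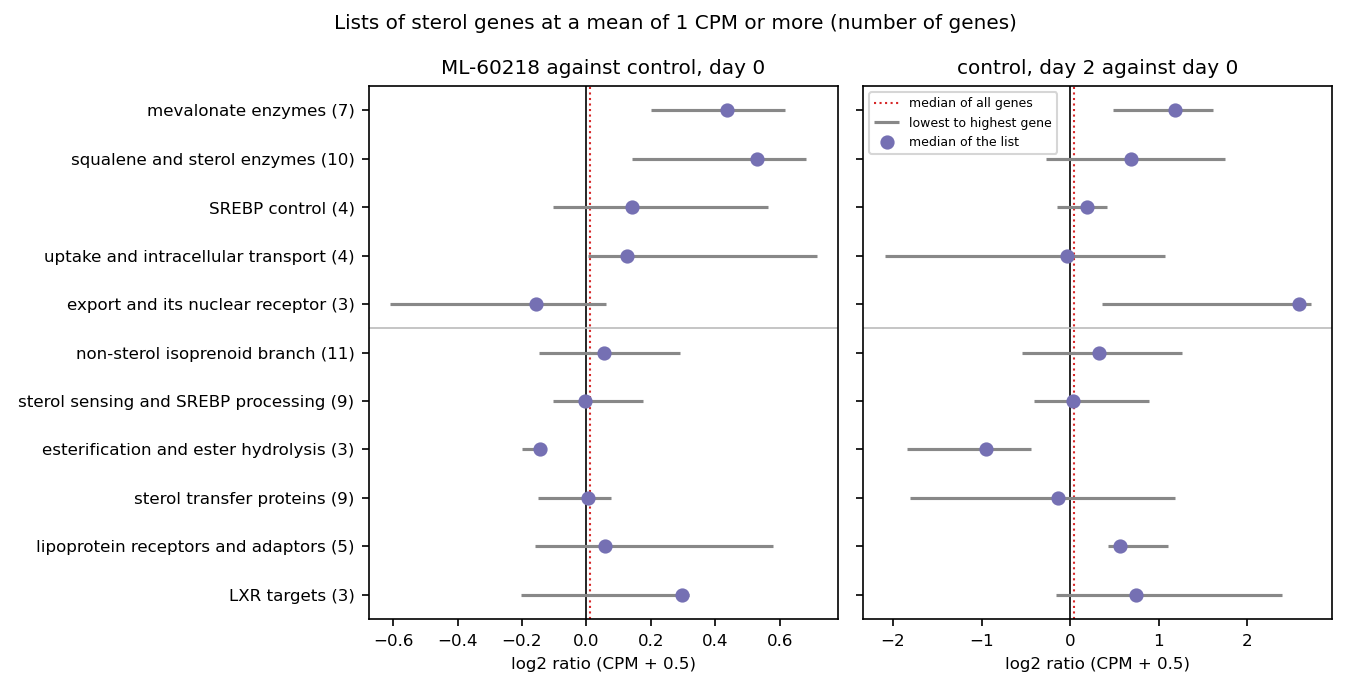
Median (point) and lowest to highest gene (bar) of the log2 ratio in each role group of the cholesterol genes (above the grey line) and in other sterol lists (below), for ML-60218 against control at day 0 and control at day 2 against day 0; the dotted line is the median of all genes. At day 0 the enzyme groups of ML-60218 sit at 0.44 and 0.53 and the non-sterol isoprenoid branch at 0.05, under TMM scaling. The medians of the lists were not taken under the other scalings, which moved the median gene of that comparison by log2 values of -0.01 to 0.01.

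Of the other lists of sterol metabolism, most lay close to control in ML-60218 at day 0, and the LXR targets had a median above it. The median log2 ratio was 0.44 in the mevalonate enzymes and 0.53 in the squalene and sterol enzymes. It was 0.05 over 11 genes of the non-sterol isoprenoid branch, which make ubiquinone, dolichol and prenyl groups from the same farnesyl diphosphate, and none of them passed the 2-fold rule. It was -0.003 over 9 genes that sense sterols or cut SREBP in the endoplasmic reticulum and Golgi, and -0.14 over 3 genes of cholesterol ester turnover. Over 3 further LXR targets it was 0.30, with Srebf1 at 39.3 CPM in control and 48.4 in ML-60218, Lpcat3 at 103 and 128 CPM and Arl4c lower, at 17.7 and 15.3 CPM. Scarb1, the HDL receptor that takes up cholesterol ester, stood at 28.8 CPM in control, 23.9 in shMaf1, 30.8 in shBrf1 and 43.3 in ML-60218, 1.5-fold (1.38 to 1.63) higher in ML-60218.

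In control at day 2 against day 0, the genes of ester turnover had lower levels at day 2. Nceh1, which hydrolyses cholesterol ester, was 3.97-fold (3.2 to 4.95) lower, and Soat1, which forms it, was lower by a smaller margin, at 74.3 and 38.2 CPM. Srebf1, an LXR target that encodes the SREBP of fatty acid synthesis, stood at 39.3 CPM at day 0 and 208 CPM at day 2 in control, and at 39.7 and 93.6 CPM in shMaf1. At day 2 it was 2.22-fold (2.13 to 2.33) lower in shMaf1 than in control, on the same side as Abca1 and Abcg1. Lpcat3, a further LXR target, was 1.2-fold lower in shMaf1 at day 2, and Arl4c was higher, at 29 against 15.7 CPM. Vldlr, a lipoprotein receptor that MYLIP can mark for breakdown, was 2.15-fold (2.09 to 2.22) higher at day 2 in control.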

How the data were processed

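Per the labels, 3T3-L1 RNA was made into stranded poly(A) libraries, and per the submitters' processing notes STAR 2.4 and the mm10 build were used. The authors made expected counts (estimated counts) per gene, rounded them to whole numbers and deposited them in 6 tables that pair a perturbed library with its control; the counting tool is not given in the sources used here. The authors' log2 fold changes serve as an alternative only, and the deposited p-values were not used, since each group is 1 library. The authors' quality tables hold, per the file headers, the percent of ribosomal and ambiguous reads (44.35% to 49.98% ambiguous), a 3′ bias score and counts of spike-in reads.

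Counts were scaled by TMM (edgeR 4.0.16, R 4.3.3) over all 8 libraries. The reads carry no molecular identifiers. Ratios used Python 3.11.15, numpy 2.4.6, pandas 2.3.3 and scipy 1.17.1, trends statsmodels 0.14.6 and figures matplotlib 3.10.9. The ratio step was tested on simulated counts. Medians run over the 12137 genes whose mean reached 1 CPM, among them all 28 listed genes. The alternatives tried were library totals, size factors of DESeq2 1.42.0, spike-in scaling, pseudocounts of 1 and 0.1 CPM, no floor or a floor of 5 CPM, the 1.5-fold rule, the authors' log2 values and removal of a trend on transcript length (lowess fraction 0.3, lengths for 91.9% of genes). All listed genes could be named; values by library are given for a set list and for extremes. The genes, lists and rules were chosen with earlier results of these data known.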

Additional observations from a re-analysis of the deposited data

Results flagged for a closer look

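For 2 of the listed genes the response to the cocktail had opposite signs in shBrf1 and in control, each with a counting interval that leaves out 1 and a size past a set minimum. Srebf2 was 1.54-fold (1.48 to 1.6) lower at day 2 in shBrf1 and 1.31-fold (1.27 to 1.36) higher in control, so that the log2 responses differed by -1.01. Nr1h2 was 1.34-fold (1.23 to 1.45) lower in shBrf1 and 1.29-fold (1.2 to 1.38) higher in control, a difference of -0.77. With 1 library per group neither difference was tested. In shBrf1 the day 2 log2 ratio was -0.28 for Srebf2 and -0.66 for Nr1h2 with the trend on transcript length removed, and the shBrf1 library of day 2 is the one with 7.8% ribosomal reads and a 3′ bias score of 0.36. Under spike-in scaling both genes were lower at day 2 in control as well, at -0.28 for Srebf2 and -0.31 for Nr1h2.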

How the results depend on the processing

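No paired analysis was possible because each group holds 1 library and the labels number no replicates; for the same reason no library could be left out. Over 290 log2 ratios of single genes, DESeq2 size factors and both pseudocounts left each value within its counting interval of the reported one, as did the authors' log2 values for the 174 they cover; library totals moved 137, removal of the length trend 98 and spike-in scaling 241, and the last turned 5 past the 2-fold rule. These were Mvk (-0.14) and Nsdhl (-0.04) in shBrf1, and Acat2 (-0.19), Mvd (-0.22) and Lss (-0.13) in ML-60218, all at day 2 against day 0. The cause was not tested. Spike-in scaling gave median log2 ratios of the 28 genes against control of -0.20 for shMaf1 and 0.11 for shBrf1 at day 0, and of 0.17 for shMaf1, -0.40 for shBrf1 and -0.22 for ML-60218 at day 2. For day 2 against day 0 it gave 0.01 in control, 0.70 in shMaf1, -0.36 in shBrf1 and -0.50 in ML-60218. Between perturbations it gave -0.65 for shMaf1 to ML-60218 at day 0, and at day 2 it gave 0.41 for that pair and 0.78 for shMaf1 to shBrf1. Spike-in scaling supposes equal spike-in per unit of RNA, which the labels do not state.

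Under spike-in scaling the 2-fold rule gave 2 lower genes in shMaf1 at day 0 and 6 in shBrf1 at day 2 against control. For day 2 against day 0 it gave 3 higher and 2 lower in control, 3 higher in shMaf1, 2 higher and 7 lower in shBrf1, and 2 higher and 10 lower in ML-60218. It gave 2 lower in shMaf1 than in ML-60218 at day 0. At day 2 it gave 8 higher and 1 lower in shMaf1 than in shBrf1 and 3 higher than in ML-60218. Library totals gave medians of 0.17 for shBrf1 against control at day 2, of 0.50 in control, 0.87 in shMaf1, 0.63 in shBrf1 and 0.52 in ML-60218 for day 2 against day 0, and at day 2 of 0.08 for shMaf1 to shBrf1 and -0.22 for shMaf1 to ML-60218; they moved the median gene of day 2 against day 0 by -0.11 to -0.27. Removal of the length trend gave medians of 0.16 for shBrf1 against control and -0.26 for shMaf1 to ML-60218 at day 2. It gave 0 lower genes in shMaf1 at day 0, 1 higher in shBrf1 at day 2, 1 lower in shBrf1 for day 2 against day 0, 1 lower in shMaf1 than in shBrf1 and 0 lower than in ML-60218 at day 0, and 0 higher in shMaf1 than in shBrf1, and 1 higher and 0 lower in shBrf1 than in ML-60218, at day 2. DESeq2 size factors and the authors' log2 values each gave 1 higher gene, Idi1, in shBrf1 at day 2.

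A pseudocount of 1 CPM gave 0 lower genes in shMaf1 at day 0 and 0 higher at day 2, and one of 0.1 CPM a median of 1.05 for shMaf1 at day 2 against day 0. A floor of 5 CPM gave 0 lower in shMaf1 and 0 higher in shBrf1 at day 0, 1 lower in shMaf1 than in shBrf1 and 0 higher in shBrf1 than in ML-60218. The 1.5-fold rule gave, at day 0, 2 lower in shMaf1, 2 higher in shBrf1, and 6 higher and 1 lower in ML-60218. At day 2 it gave 3 higher in shMaf1, 7 higher and 2 lower in shBrf1 and 7 higher in ML-60218. For day 2 against day 0 it gave 16 higher in shBrf1 and 17 in ML-60218. Between perturbations it gave 6 lower in shMaf1 than in shBrf1 and 9 lower than in ML-60218 at day 0. At day 2 it gave 5 higher and 6 lower in shMaf1 than in shBrf1, 1 higher and 10 lower than in ML-60218, and 1 higher and 6 lower in shBrf1 than in ML-60218. At this depth single counts limit mainly Abcg1, which had 13 to 512 counts.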
